A study of Mus musculus with 2 samples.

Results

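The mitochondrial ribosomal protein genes were taken by their symbols, as every gene named Mrpl or Mrps followed by a digit, pseudogene entries aside. The rule found 78 of the 32544 genes in the single-cell RNA-seq count table, and it used no measured value. They were followed in 2 libraries of mouse bone marrow-derived monocytes (BMDMs), 1 from a control and 1 from the LysM-Cre;Arid1afl/fl genotype (the mutant), each cultured with M-CSF at 50 ng/ml and RANKL at 100 ng/ml. M-CSF sustains cells of the monocyte and macrophage line, RANKL is the cytokine that drives them towards bone-resorbing osteoclasts, and the cells were taken 24 hours after RANKL induction. Per the methods, marrow came from mice 4 to 6 weeks old, and the Cre, driven by the lysozyme M promoter of myeloid cells, acts on loxP sites around exons 5 to 6 of Arid1a, which encodes a DNA-binding subunit of the BAF chromatin remodelling complex. The labels give the control no allele, and the number of animals behind a library is not given in the sources used here. With 1 library a genotype there was no replicate, so no test between genotypes was possible, and genotype, animal, culture and library preparation cannot be told apart.

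The mitochondrial ribosome (mitoribosome) sits in the mitochondrial matrix and makes the few proteins that mitochondrial DNA encodes, all of them core subunits of the respiratory chain and the ATP synthase. Its RNA comes from mitochondrial DNA, whereas every protein of it is encoded in the nucleus, made in the cytosol and imported. Some of these proteins descend from bacterial ribosomal proteins and others were gained by mitochondria. Osteoclasts are rich in mitochondria, and the respiratory chain supplies much of the ATP used in resorption.

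The deposited counts are unique molecular identifiers (UMIs), each standing for 1 captured transcript. A cell was kept with at least 500 genes and at most 10% of its UMIs from mitochondrially encoded (mt-) genes, which left 6269 control and 5663 mutant cells with medians of 23978 and 21734 UMIs. Of the kept cells, 7 barcodes occurred in both libraries. Levels are given as UMIs per 1000000 UMIs of the same cells (CPM), and ratios on the log2 scale. Intervals are exact 95% intervals that cover counting error only, not the spread between cells, animals or cultures. Arid1a was at 51.9 CPM in the control and 20.4 CPM in the mutant library, a log2 ratio of -1.35 (-1.41 to -1.28), although reads of transcript ends do not check the deletion itself. All 7 macrophage markers were detected in both libraries, at a summed 1313 CPM in the control and 2721 CPM in the mutant, and T cell, B cell and erythroid markers stayed at or below 1.25 CPM. The summed neutrophil markers, with all 4 genes detected in each library, differed more, at 264 CPM in the control and 1981 CPM in the mutant. The 4 stromal markers summed to 4.42 and 11.4 CPM.

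By their place in the mitoribosome, 26 of the 78 genes encode small-subunit proteins and 51 large-subunit proteins. Symbols and structure part ways at 3 genes. Mrps18a and Mrps30, although named for the small subunit, encode proteins of the large subunit, and Mrps36 encodes a component of the 2-oxoglutarate dehydrogenase complex. The genes lay on 17 chromosomes with 0 on the X chromosome. A mean of at least 10 CPM over both libraries was met by 77 of the 78, with a median of 84.1 CPM. The exception, Mrpl53, had 23 UMIs in the control and 20 in the mutant (0.14 and 0.15 CPM), and its ratio could not be resolved at this depth. The highest levels were those of Mrpl20, whose bacterial counterpart is needed early in large-subunit assembly, at 424 CPM in the control and 304 CPM in the mutant, and of Mrpl33, at 293 and 306 CPM. Mrps14 followed with 308 and 264 CPM, Mrpl52 with 297 and 245 CPM and Mrpl51 with 293 and 237 CPM. These levels count transcript ends and are not divided by gene length.

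The mutant library held less mitoribosomal transcript. The control cells summed to 9064 CPM over the 78 genes (9049 to 9079) and the mutant cells to 7505 CPM (7490 to 7520), a log2 ratio of -0.27 (-0.28 to -0.27). Per cell, the median share of UMIs from these genes was 0.895% (quartiles 0.774 and 1.02%) in the control and 0.734% (0.644 and 0.832%) in the mutant. Of the 77 genes that passed the level filter, 39 were at least 1.2-fold lower in the mutant and 1 was at least 1.2-fold higher. Over all 7185 genes that passed the same filter, 20.4% were 1.2-fold lower and 29.1% were 1.2-fold higher. The median log2 ratio was -0.27 over the mitoribosomal genes and 0.04 over all genes. With totals that left out mt- and cytosolic ribosomal protein genes, 48 mitoribosomal genes were lower and 0 higher, while the all-gene split turned to 29.9% lower and 21.9% higher.

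Both subunits were lower. The small-subunit genes summed to 2862 CPM in the control and 2340 CPM in the mutant, a log2 ratio of -0.29, and 16 of 26 were 1.2-fold lower. The large-subunit genes summed to 6076 and 5054 CPM, a log2 ratio of -0.27, with 23 of 50 lower and 1 higher. Descent from a bacterial protein made no visible difference to the centre of the distribution. The median was -0.27 for the 46 passing genes with a bacterial counterpart, 23 of them lower, and also -0.27 for the 30 mitochondrion-specific genes, 16 of them lower. The genes whose symbol and place disagree lay above these medians, with Mrps18a at 147 and 132 CPM (log2 -0.15), Mrps30 at 35.8 and 33.3 CPM (-0.10) and Mrps36 at 126 and 111 CPM (-0.19).

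**Figure D1:**
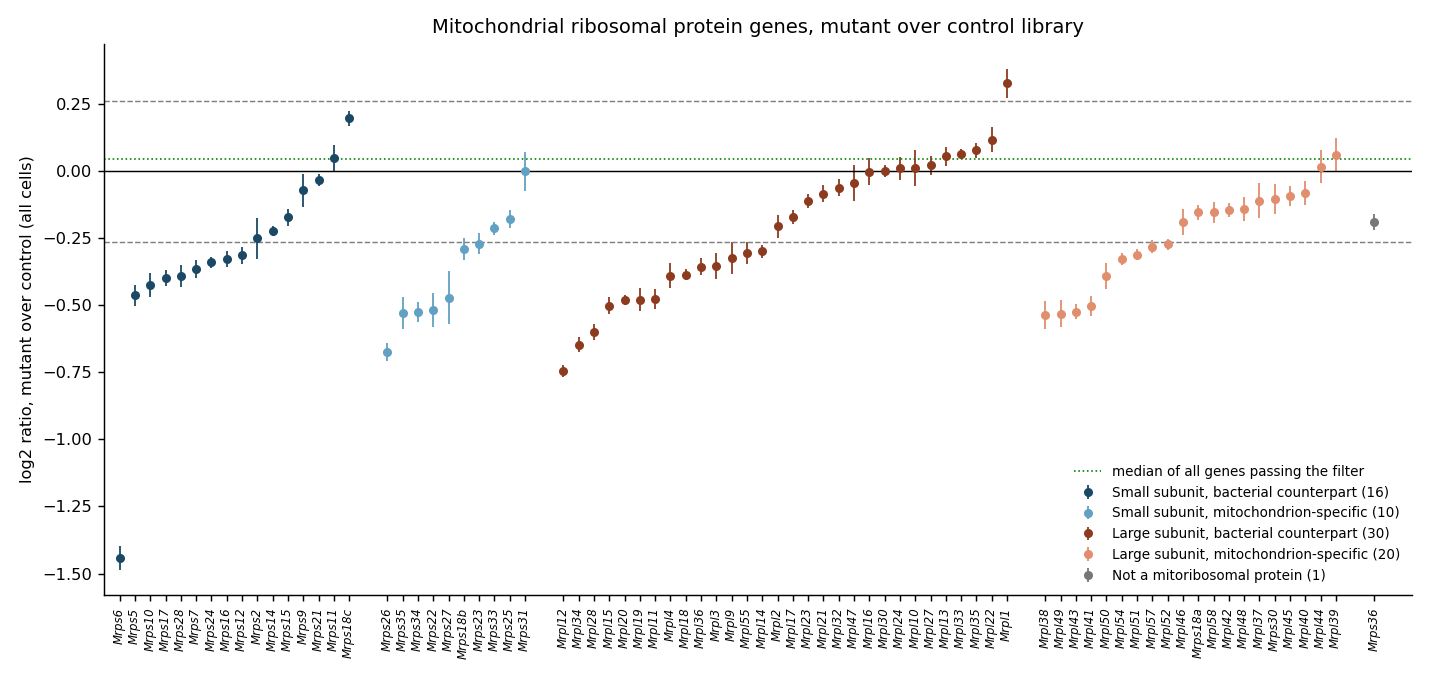
The log2 ratio of mutant over control over all cells is plotted on the vertical axis for each of the 77 genes that passed the level filter, ordered within structural groups on the horizontal axis, with bars for the 95% counting interval, dashed lines at 1.2-fold and a dotted line at the all-gene median. Points of every group except the single Mrps36 spread from below the lower dashed line to 0 or above it, with Mrps6 alone at the bottom (-1.44) and Mrpl1 alone above the upper line (0.33).

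Mrps6 stood apart from the other members. It encodes a small-subunit protein with a bacterial counterpart and lies at chr16:91854965-91909592 on the plus strand (GRCm39, GENCODE M39). Control cells had 114 CPM (112 to 116) of it and mutant cells 41.9 CPM (40.8 to 43.1), a log2 ratio of -1.44 (-1.49 to -1.40), and the share of cells with at least 1 of its UMIs was 80.0% in the control and 47.1% in the mutant. Slc5a3, a myo-inositol transporter gene whose exons overlap Mrps6 on the same strand, was likewise lower, at 15.5 CPM in the control and 4.85 CPM in the mutant (log2 -1.68, -1.81 to -1.55). Reads of the 2 genes could be confused where their exons overlap, so the share of each in the other's value was not tested. Mrpl12, the stalk protein that recruits translation factors to the large subunit, was the next lowest. It lies at chr11:120375430-120381396 (+) and had 305 CPM in the control and 182 CPM in the mutant, a log2 ratio of -0.75 (-0.77 to -0.72).

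The rest of the 10 lowest ratios were shared by both subunits. Mrps26, a mitochondrion-specific small-subunit gene at chr2:130405658-130410616 (+), had 121 CPM in the control and 75.8 CPM in the mutant (log2 -0.67). Mrpl34, at chr8:71917555-71918396 (+), had 190 and 121 CPM (-0.65), and Mrpl28, at chr17:26342469-26345588 (+), had 156 and 103 CPM (-0.60). Both encode large-subunit proteins with bacterial counterparts. Mrpl38, Mrpl49, Mrps35, Mrps34 and Mrpl43 encode mitochondrion-specific proteins. Their control levels were 48.8, 55.3, 38.5, 103 and 167 CPM, their mutant levels 33.7, 38.2, 26.7, 71.6 and 116 CPM, and their log2 ratios lay between -0.54 and -0.52. Nme3, which overlaps Mrps34 on the same strand, went the other way at a low level, with 2.37 CPM in the control and 3.51 CPM in the mutant.

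A minority of members were not lower. Mrpl1, which builds the flexible stalk beside the site where spent tRNA leaves, lies at chr5:96357146-96414586 (+) and had 34.4 CPM in the control and 43.2 CPM in the mutant, a log2 ratio of 0.33 (0.27 to 0.38). Mrps18c, the copy of the S18 family that holds the bacterial position in the small subunit, lies at chr5:100946493-100955417 (+) and had 135 and 155 CPM (0.20, 0.17 to 0.23). Its mitochondrion-specific relative Mrps18b had 75.7 CPM in the control and 61.9 CPM in the mutant (-0.29). Mrpl22, a protein of the exit tunnel, had 46.6 and 50.6 CPM (0.12). The remaining 7 of the 10 highest ratios lay between 0.02 and 0.08 and thus within 1.2-fold. They were those of Mrpl35 (132 and 140 CPM), Mrpl33, Mrpl39 (26.3 and 27.5 CPM), Mrpl13 (88.3 and 91.7 CPM), Mrps11 (44.8 and 46.4 CPM), Mrpl27 (83.5 and 84.8 CPM) and Mrpl44 (29.3 and 29.6 CPM). All 7 turned below 0 with totals without mt- and cytosolic ribosomal protein genes and with median-of-ratios factors, and all but Mrpl35 also with TMM factors, so their direction depends on the scaling. Of the 77 genes, 61 had an interval wholly below 0 and 7 an interval wholly above it.

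Cells carrying neutrophil or stromal markers, 23 in the control and 92 in the mutant, moved with the genotype. Without them the summed log2 ratio was -0.27, and 39 genes were again lower and 1 higher. The exons of 45 members overlap those of another gene on the opposite strand, among them Mrps11 and Mrpl46, which overlap each other.

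The promoter stretches of genes at both ends of this range, of Mrpl52 with its contrasting state ratios, and of Mrpl32 with its repeated NRF1 letters are shown so that their sequence can be read beside their levels. NRF1, the GA-binding member of the ETS family and YY1 are transcription factors known for promoters of nuclear genes with mitochondrial roles, and Myc binds the E-box. Each line gives the 170 bases before a RefSeq transcript start (GRCm38.p6, a different build from the gene positions above), 5′ to 3′ on the gene's strand. Capitals mark exact matches, on either strand, to GCGCATGCG (NRF1), CCGGAAG (ETS), AAGATGGCG (YY1) or CACGTG (E-box), and GCGCATGCGC is an NRF1 match on both strands at once.
Mrps6 (chr16:92058166-92058335, plus strand): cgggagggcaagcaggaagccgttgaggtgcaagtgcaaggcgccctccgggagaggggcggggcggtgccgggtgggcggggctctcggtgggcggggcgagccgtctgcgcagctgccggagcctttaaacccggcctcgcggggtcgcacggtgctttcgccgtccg
Mrpl12 (chr11:120484467-120484636, plus strand): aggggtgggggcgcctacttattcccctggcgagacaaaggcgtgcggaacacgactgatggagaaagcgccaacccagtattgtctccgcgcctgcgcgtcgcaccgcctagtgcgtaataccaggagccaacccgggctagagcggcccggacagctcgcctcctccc
Mrps26 (chr2:130563587-130563756, plus strand): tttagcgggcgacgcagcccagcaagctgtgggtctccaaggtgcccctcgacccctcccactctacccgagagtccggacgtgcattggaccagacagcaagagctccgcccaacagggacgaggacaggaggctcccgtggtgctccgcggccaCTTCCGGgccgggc
Mrpl34 (chr8:71464756-71464925, plus strand): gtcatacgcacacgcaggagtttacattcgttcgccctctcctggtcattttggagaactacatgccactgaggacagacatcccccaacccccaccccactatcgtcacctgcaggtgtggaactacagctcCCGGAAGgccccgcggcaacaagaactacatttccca
Mrpl1 (chr5:96209945-96210114, plus strand): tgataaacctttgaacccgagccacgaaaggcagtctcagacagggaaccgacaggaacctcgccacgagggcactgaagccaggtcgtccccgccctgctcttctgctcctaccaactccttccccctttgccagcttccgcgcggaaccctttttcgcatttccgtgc
Mrps18c (chr5:100798589-100798758, plus strand): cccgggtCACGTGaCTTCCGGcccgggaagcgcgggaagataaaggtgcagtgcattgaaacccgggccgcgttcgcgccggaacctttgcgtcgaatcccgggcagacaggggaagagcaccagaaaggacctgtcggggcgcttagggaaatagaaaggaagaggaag
Mrpl22 (chr11:58171494-58171663, plus strand): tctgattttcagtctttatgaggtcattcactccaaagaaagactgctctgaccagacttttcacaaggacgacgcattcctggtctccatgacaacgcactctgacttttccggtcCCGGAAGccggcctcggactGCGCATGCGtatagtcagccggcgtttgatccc
Mrpl32 (chr13:14613038-14613207, minus strand): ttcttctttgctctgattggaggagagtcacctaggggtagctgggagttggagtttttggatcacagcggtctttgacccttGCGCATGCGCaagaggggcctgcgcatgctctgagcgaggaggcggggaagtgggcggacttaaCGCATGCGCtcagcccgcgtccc
Mrpl52 (chr14:54426739-54426908, plus strand): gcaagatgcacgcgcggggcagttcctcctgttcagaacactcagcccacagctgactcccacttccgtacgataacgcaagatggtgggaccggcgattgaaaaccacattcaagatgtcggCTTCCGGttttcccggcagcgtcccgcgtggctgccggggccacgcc

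No match stood in the printed stretch of Mrps6, Mrpl12 or Mrpl1. Mrps26, Mrpl34, Mrps18c and Mrpl52 each held the ETS letters, Mrps18c next to an E-box, and Mrpl22 held ETS letters followed by NRF1 letters. Thus members with ratios below and above 0 carried ETS letters, although Mrps18c and Mrpl22, those above 0, lay within 1.2-fold. RefSeq gave a promoter for 69 of the 78 genes, in a window from 250 bases before to 50 bases after the start. NRF1 letters were in 10.1% of these, against 4.88% of the 5880 genes that passed the level filter and had a promoter. ETS letters were in 37.7% against 24.3%, YY1 letters in 11.6% against 4.56%, and the E-box in 7.25% against 12.9%. Over all 27025 genes with a promoter the shares were 1.95, 9.93, 1.64 and 8.09%, and the median GC content was 58% for the mitoribosomal genes and 61.33% for the genes that passed the filter. The shares depended on the window. In its last 150 bases NRF1 letters were in 5.8% against 3.64% of the genes that passed the filter, and the E-box in 2.9% against 8.27%. ETS letters were there in 33.3% against 19.0%, and YY1 letters in 10.1% against 3.74%. The mutant over control ratios of genes with and without the letters in the full window overlapped. The median was -0.27 for the 25 passing genes with ETS letters and -0.19 for the 43 without, and -0.06 for the 7 with NRF1 letters (range -0.32 to 0.12) and -0.22 for the 61 without. At least 1.2-fold lower in the mutant were 14 of the 25 and 17 of the 43. For NRF1 letters these were 2 of the 7 and 29 of the 61, and the share over all genes was 20.4%. These matches are descriptions of the sequence and not of binding.

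Of 5 proteins of the same ribosome with other symbols, 3 were 1.2-fold lower in the mutant. Gadd45gip1 had 166 CPM in the control and 120 CPM in the mutant (log2 -0.47), and Ptcd3 and Aurkaip1 had log2 ratios of -0.47 and -0.33. Chchd1, at -0.24, did not reach the fold, and Dap3 was level at 49.4 and 49.2 CPM. The factors that build the mitoribosome were spread around 0. Of 11 assembly factors passing the filter, 2 were lower, the GTPase gene Noa1 (20.2 and 12.4 CPM, log2 -0.71) and Malsu1 (-0.30), 1 was higher, Mterf3 (0.27), and the median was -0.03. Among 11 translation factors the elongation factor genes Tufm, Tsfm and Gfm1 and the recycling factor gene Mrrf were lower (-0.41, -0.45, -0.30 and -0.47) and Slirp, which stabilises mitochondrial mRNAs with Lrpprc, was higher at 209 CPM in the control and 266 CPM in the mutant (0.35). The sum of that list, to which Slirp gave the most UMIs, had a log2 ratio of 0.04 while its median was -0.20. Of 7 mitochondrial aminoacyl-tRNA synthetase genes 1, Yars2, was lower (-0.45), and the median was -0.05.

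Lists around the mitoribosome differed in how far they were lower in the mutant. The mRNAs made from mitochondrial DNA, which the mitoribosome translates, summed to 19220 CPM in the control and 12462 CPM in the mutant (log2 -0.63), and 8 of 12 were lower, with mt-Nd1 at 1958 and 884 CPM and mt-Co1 level at 2109 and 2113 CPM. The nuclear-encoded subunits of oxidative phosphorylation, which join the translated products, had a median of -0.11, with 11 of 75 lower and 2 higher. Mitochondrial import genes had a median of -0.40 with 18 of 26 lower, among them the small chaperone gene Timm8a1 (169 and 72.4 CPM) and the chaperonin gene Hspd1 (468 and 208 CPM). The cytosolic ribosomal protein genes, which serve the other ribosome of the cell, had a median of -0.40 with 63 of 80 lower. Among the regulators of mitochondrial biogenesis, 3 of 9 were lower, Tfb2m (-0.43), Tfam (28.9 and 22.7 CPM, -0.35) and Myc (-0.32), whereas Nrf1 (0.05), Gabpa (-0.04) and Yy1 (-0.08) were within 1.2-fold and Gabpb1 was at 0.24. The background shares of 20.4 and 29.1% apply to each of these counts.

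**Figure D2:**
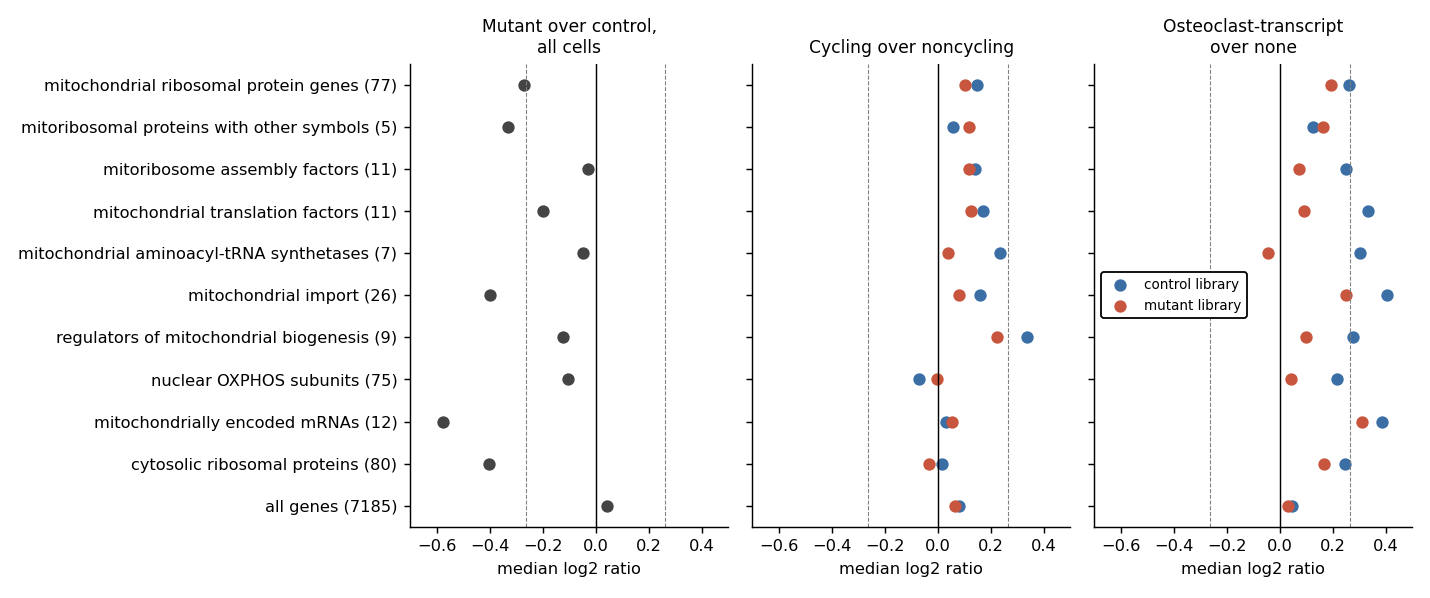
Median log2 ratios of the mitoribosomal genes and of 9 related lists (number of genes passing the filter in brackets) are plotted beside all genes, for mutant over control in grey and for both cell-state ratios in the control (blue) and mutant (red) library, with dashed lines at 1.2-fold. The mitoribosomal median is at -0.27 in the left panel and at 0.26 (control) and 0.19 (mutant) in the right panel, while the all-gene medians stay between 0.03 and 0.08.

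Cycling cells held slightly more mitoribosomal transcript in both libraries. Each cell of at least 5000 UMIs was thinned to 5000, and a cell was called cycling where the genes Cdk1, Aurka, Mki67 and Top2a together gave 3 UMIs or more, and noncycling where they gave 0. In the control, 2376 cycling cells had a summed level of 9320 CPM and 1889 noncycling cells 8583 CPM, a log2 ratio of 0.12 (0.11 to 0.13). In the mutant, 1790 cycling cells had 7732 CPM and 1998 noncycling cells 7246 CPM, a log2 ratio of 0.09 (0.09 to 0.10). Cells with 1 or 2 UMIs, at 9151 CPM in the control and 7549 CPM in the mutant, lay between them. The median log2 ratio was 0.15 in the control and 0.10 in the mutant, beside 0.08 and 0.06 over all genes. In the control 19 of 77 members were 1.2-fold higher in cycling cells, against 26.3% of all genes, and 0 were lower, against 9.78%. In the mutant 13 were higher, against 23.2%, and 0 were lower, against 8.6%. The share of members that were higher was thus below the background under this gate.

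The members differed among themselves in a similar order in both libraries. Mrpl18, a protein of the central protuberance of the large subunit, had 209 CPM in noncycling and 318 CPM in cycling control cells (log2 0.60), and 169 and 244 CPM in the mutant (0.53). Mrps27, a pentatricopeptide repeat protein of the small subunit, had 10.7 and 16.7 CPM in the control (0.64) and 9.01 and 10.9 CPM in the mutant (0.28). Both were more than 1.2-fold higher in each library. Mrps27 lay near the filter of 10 CPM, however, and its mutant ratio was close to the fold (log2 0.26). Mrpl47, Mrpl49 and Mrps26 completed the top, with log2 ratios of 0.50, 0.37 and 0.41 in the control and 0.34, 0.47 and 0.33 in the mutant. At the other end Mrpl52 had 310 CPM in noncycling and 279 CPM in cycling control cells (-0.15), and 253 and 235 CPM in the mutant (-0.11). Mrps21 had 249 and 228 CPM in the control (-0.13) and 242 and 222 CPM in the mutant (-0.13). Mrps14, Mrps18c and Mrps18a lay between -0.10 and -0.01, within 1.2-fold in both libraries. Of the 77 members 54 were higher in both libraries, 8 lower in both and 15 opposite, and the ratios of the libraries, which share neither cells nor totals, had Pearson's r of 0.74 across genes (Spearman's rho 0.75, n = 77). Over all 7185 genes, 3798 were higher in both libraries and r was 0.93 (rho 0.83). Genes are not independent replicates, and low genes of the list had higher cycling ratios (r with the log2 mean level -0.45 in the control and -0.25 in the mutant).

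Cells with G2/M transcripts alone stood higher than cells with S-phase transcripts alone. A list of phase genes was called present with at least 3 thinned UMIs and absent with 0. The S-phase list was present in 77.8% of control and 72.2% of mutant cells, whereas 31.0 and 37.6% were noncycling by the gate above. It thus also marked noncycling cells, and the classes are not strict phases of the cycle. The summed level in the control was 7442 CPM with neither list (113 cells), 8343 CPM with S alone (730 cells) and 9060 CPM with G2/M alone (134 cells). In the mutant it was 6635 CPM (170 cells), 7226 CPM (1082 cells) and 7778 CPM (133 cells). The S alone levels lay below the 8583 CPM (control) and 7246 CPM (mutant) of noncycling cells. The log2 ratios over neither list were 0.16 and 0.28 in the control and 0.12 and 0.23 in the mutant. The order of neither, S and G2/M held in each library, though few cells fell in the outer classes, and the all-gene medians were 0.09 and 0.11 in the control and 0.07 and 0.09 in the mutant.

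Related lists differed in this respect. The median cycling ratio was 0.02 in the control and -0.03 in the mutant for cytosolic ribosomal protein genes, -0.07 and -0.00 for nuclear oxidative phosphorylation subunits, and 0.03 and 0.05 for mt- mRNAs. Import genes had 0.16 and 0.08, and regulators of biogenesis 0.34 and 0.23. In the mutant the neutrophil markers were at 3214 CPM in cycling and 1093 CPM in noncycling cells, and in the control at 284 and 163 CPM. Without the marked cells the summed log2 ratios were 0.12 in the control and 0.10 in the mutant. With the gates set on unthinned counts they were 0.20 and 0.14, with 33 members higher in the control (42.9%, against 31.1% of all genes) and 26 in the mutant (33.8%, against 25.5%), both shares above the background.

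**Figure D3:**
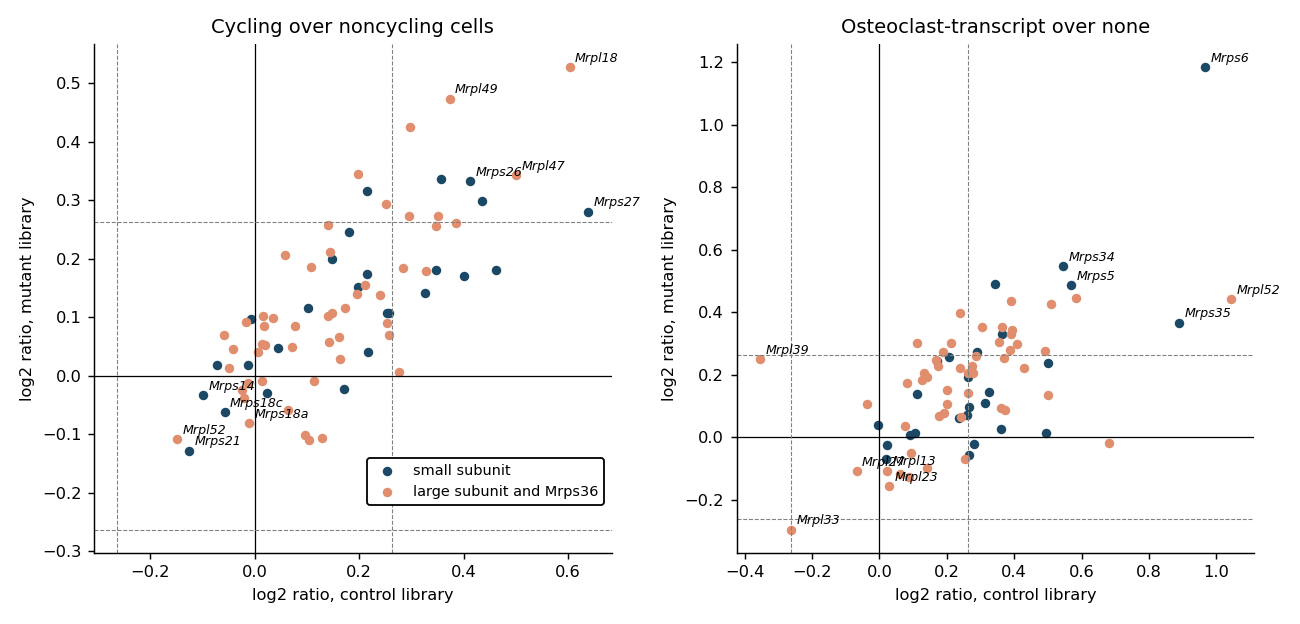
Each point is 1 of 77 genes, with its log2 ratio in the control library on the horizontal and in the mutant library on the vertical axis, for cycling over noncycling cells (left) and for cells with osteoclast transcripts over cells with none (right), small-subunit genes in dark blue and the others in orange, and dashed lines at 1.2-fold. Most points lie above 0 on both axes (54 and 60 genes), with Mrpl18 at the top of the left panel and Mrps6 at the top of the right.

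Cells with osteoclast transcripts held more mitoribosomal transcript. A cell was counted here with at least 2 thinned UMIs over Ctsk, the protease of bone resorption, Mmp9, a matrix protease, and Dcstamp, which is needed for cell fusion, and it was set against cells with 0. In the control, 615 such cells had 10604 CPM (10556 to 10651) and the 4776 cells without had 8805 CPM (8789 to 8821), a log2 ratio of 0.27 (0.26 to 0.28). In the mutant, 102 such cells had 8410 CPM (8305 to 8516) and 4958 cells without had 7494 CPM (7479 to 7509), a log2 ratio of 0.17 (0.15 to 0.18). The median log2 ratio was 0.26 in the control and 0.19 in the mutant, beside 0.04 and 0.03 over all genes. In the control 37 of 77 members were 1.2-fold higher, against 20.2% of all genes, and 1, Mrpl39, was lower, against 20.6%. In the mutant 23 were higher, against 18.6%, and 1, Mrpl33, was lower, against 16.6%. Past the fold in both libraries were 19 members (24.7%), and 10.4% of all genes.

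The level followed the number of osteoclast UMIs. In the control it was 8805 CPM with 0 UMIs, 9308 CPM with 1, 10070 CPM with 2 to 3 and 11291 CPM with at least 4. In the mutant it was 7494, 7434, 7910 and 9563 CPM, so that 1 UMI brought no increase there, and the last bin held 30 cells. Median depth moved with the state as well, at 26852 UMIs in control cells with osteoclast transcripts and 23897 in those without, and at 25103 and 22274 in the mutant.

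**Figure D4:**
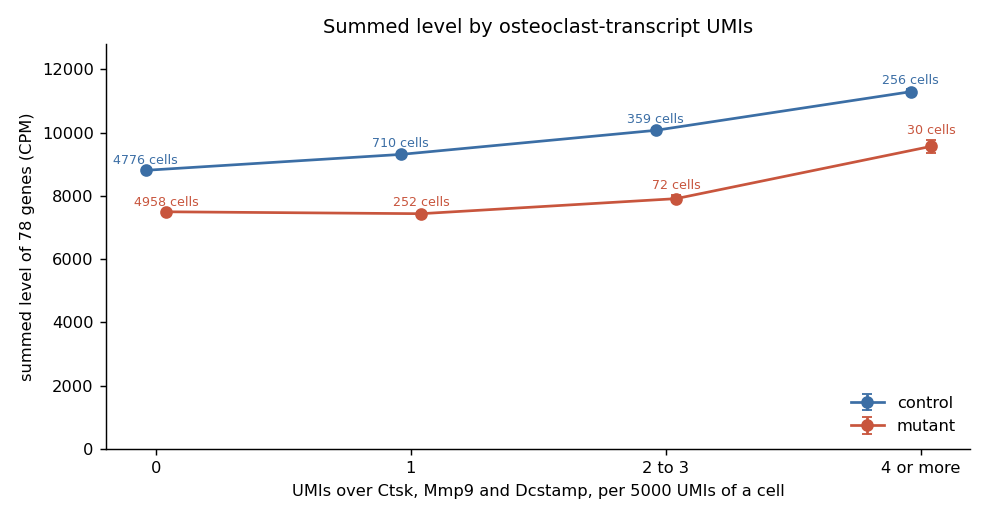
The summed level of the 78 genes in CPM is plotted against the number of UMIs over Ctsk, Mmp9 and Dcstamp per 5000 UMIs of a cell, with a line for each library, the number of cells beside each point and bars for the 95% counting interval. The control goes from 8805 to 11291 CPM over the 4 bins, each higher than the last, and the mutant lies below it in every bin, from 7494 to 9563 CPM.

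Mrps6, the member that was lowest in the mutant as a whole, was among the highest here. It had 98.0 CPM in control cells without and 192 CPM in control cells with osteoclast transcripts (log2 0.97), and 40.0 and 90.9 CPM in the mutant (1.18). Mrpl52, a mitochondrion-specific large-subunit gene, had 257 and 530 CPM in the control (1.04) and 244 and 331 CPM in the mutant (0.44). It was thus higher with osteoclast transcripts and slightly lower in cycling cells. Mrps35 had 34.2 and 63.4 CPM in the control (0.89) and 26.6 and 34.3 CPM in the mutant (0.37). Mrps34 had 96.4 and 141 CPM in the control (0.55) and 70.9 and 104 CPM in the mutant (0.55). Mrps5, a small-subunit protein with a bacterial counterpart, had 81.6 and 121 CPM in the control (0.57) and 62.9 and 88.2 CPM in the mutant (0.49). All 5 were past 1.2-fold in both libraries, as was Mrpl12, with 285 and 428 CPM in the control (0.58) and 181 and 247 CPM in the mutant (0.45).

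A few members went the other way. Mrpl33, a large-subunit gene with a bacterial counterpart, had 301 CPM in control cells without and 251 CPM in control cells with osteoclast transcripts (-0.26), and 309 and 252 CPM in the mutant (-0.30). Mrpl39 had 27.4 and 21.5 CPM in the control (-0.35) but 27.4 and 32.6 CPM in the mutant (0.25, -0.06 to 0.54), where counting error left the sign unresolved. Mrpl27, Mrpl23 and Mrpl13 lay within 1.2-fold in each library, between -0.16 and 0.03. A larger share of mitochondrion-specific members was past the fold than of those with a bacterial counterpart. In the control 18 of 30 were 1.2-fold higher (summed log2 0.35) against 19 of 46 (0.22), and in the mutant 12 of 30 (0.23) against 11 of 46 (0.13). Over all genes 20.2% were higher in the control and 18.6% in the mutant. The mitochondrion-specific sums include Mrpl52, at 257 and 530 CPM in the control, and how far they rest on it was not tested.

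The summed osteoclast ratio was also above 0 within cycling and noncycling cells taken apart, though on few mutant cells. Among noncycling cells the summed level in the control was 8313 CPM without and 10324 CPM with osteoclast transcripts (log2 0.31), and in the mutant 7232 and 8021 CPM (0.15). The noncycling cells with osteoclast transcripts were 185 in the control and 35 in the mutant. Among cycling cells the log2 ratios were 0.25 and 0.16, with 234 control and 34 mutant cells carrying osteoclast transcripts. Related lists were higher as well in the control, where the medians were 0.41 for import, 0.39 for mt- mRNAs, 0.33 for translation factors, 0.24 for cytosolic ribosomal proteins and 0.21 for nuclear oxidative phosphorylation subunits. In the mutant they were 0.25, 0.31, 0.09, 0.17 and 0.04. Stromal markers had 0 UMIs in the control cells with osteoclast transcripts and 827 UMIs (284 CPM) in the mutant ones, where neutrophil markers were at 598 CPM. Without cells carrying these markers the summed log2 ratios were 0.27 and 0.18, with 38 members higher in the control (49.4%, against 20.2% of all genes) and 26 in the mutant (33.8%, against 18.6%).

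The size of the osteoclast ratio depended on the gate. With gates on unthinned counts the summed log2 ratio was 0.16 in the control, with 14 members higher (18.2%, against 10.7% of all genes), and 0.041 in the mutant, with 2 higher (2.6%, against 5.37%). With at least 1 thinned UMI it was 0.17 in the control, with 17 higher (22.1%, against 11.1%), and 0.046 in the mutant, with 2 higher (2.6%, against 6.15%). With at least 3 it was 0.32, with 44 higher (57.1%, against 24%), and 0.23 in 48 mutant cells, with 39 higher (50.6%, against 30.5%). The control share stayed above the background under all 3 gates, whereas the mutant share was below it under the looser ones. With thinning to 10000 UMIs the mutant share was 13% against 12.3%, and with Acp5 added and at least 3 UMIs 14.3% against 14.6%, both near the background. Another random thinning gave 20.8% against 14.1% in the mutant.

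Set side by side within 4 states, the mutant library was lower in each. Here a cell was cycling with 3 thinned UMIs or more and carried osteoclast transcripts with 2 or more, so that cells of neither state include those with 1 osteoclast UMI and those with 1 or 2 cycling UMIs. The states were not equal in osteoclast transcripts between the libraries. Ctsk, Mmp9 and Dcstamp summed to 39.5 CPM in the control and 14.1 CPM in the mutant in cells of neither state, to 42.8 and 13.9 CPM in cells that were only cycling, to 871 and 573 CPM in cells with osteoclast transcripts only and to 748 and 841 CPM in cells with both. In cells of neither state the summed level was 8671 CPM in the control and 7362 CPM in the mutant (log2 -0.24), and 33 of 77 members were 1.2-fold lower, against 18.7% of all genes. In cells that were only cycling it was 9139 and 7713 CPM (-0.24), with 36 members lower against 19.7%. In cells that carried only osteoclast transcripts, 381 in the control and 68 in the mutant, it was 10476 and 8294 CPM (-0.34, -0.36 to -0.31), with 47 lower against 24.5%. In cells with both, 234 and 34, it was 10771 and 8633 CPM (-0.32, -0.35 to -0.29), with 40 lower against 26.1%. The difference between states was not tested, and another random thinning moved the third of these ratios to -0.47 and the last to -0.27.

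**Figure D5:**
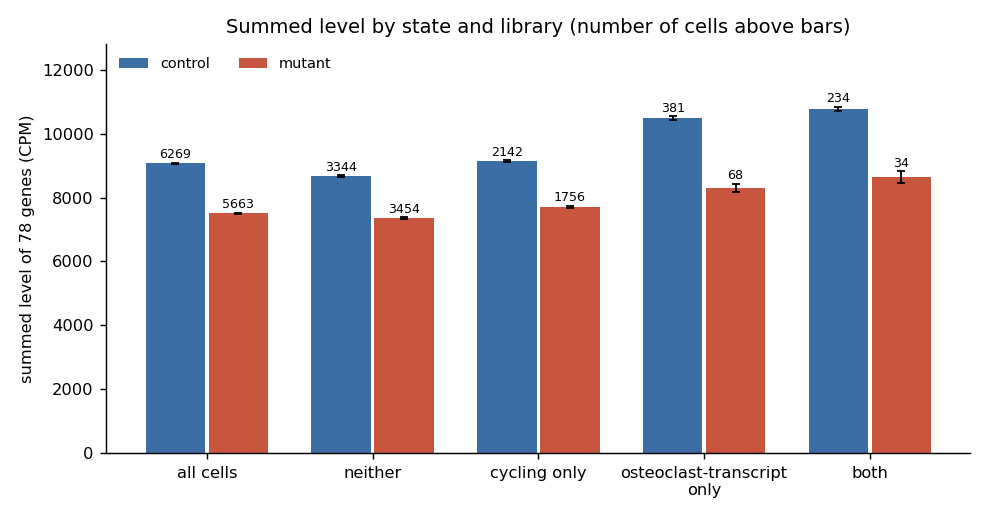
Bars give the summed level of the 78 genes in CPM, from 0, for all cells and for 4 cell states in the control and mutant libraries, with the number of cells above each bar and lines for the 95% counting interval. The control bar is higher in every state, from 8671 against 7362 CPM in cells of neither state to 10771 against 8633 CPM in cells of both.

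Single members kept their place across states with exceptions. Mrps6 had log2 ratios of mutant over control of -1.27 in cells of neither state, -1.42 in cycling cells, -0.95 in cells with osteoclast transcripts and -1.27 in cells with both. Mrpl12 had -0.63, -0.72, -0.81 and -0.73. Mrpl1, the member that was higher over all cells, had 0.43, 0.30 and 0.46 in the first 3 states. In cells with both it was at 47.5 CPM in the control and 47.3 CPM in the mutant, a log2 ratio of -0.00 that rests on the 34 mutant cells. Mrpl52 was at 277 and 249.7 CPM in cells of neither state and at 570 and 334 CPM in cells with osteoclast transcripts only, so the libraries lay further apart in the latter.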

How the data were processed

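Single-cell RNA-seq libraries of control and LysM-Cre;Arid1afl/fl BMDMs were analysed from the UMI counts per gene and cell that the authors deposited (Cell Ranger 6.1.0 per the file headers, GRCm39 per the submitters' processing notes), with no columns of comparisons. Totals were 164004706 and 131800059 UMIs. Members, related lists and comparisons were chosen with earlier results of these data known. Counts were summed over cells and scaled to CPM, and states were called after thinning to 5000 UMIs (168 control and 351 mutant cells were shallower). Log2 ratios carry exact conditional Poisson 95% intervals, and doublets were kept (333 and 275 were removed in an alternative). With 1 library a genotype no test was run, and past 1.2-fold stands for a call. Named were the 10 highest and 10 lowest mutant over control ratios, the 5 highest levels, the 5 highest and lowest state ratios, structural exceptions, members under 10 CPM and genes of related lists. Mrpl32 was named for its promoter letters and Mrps18b as a relative, after their values were seen. Positions came from GENCODE M39 (31977 of 32544 identifiers matched) and promoters from RefSeq (GRCm38.p6). Scaling, weights, cell filters, doublets, gates, thinning and the promoter window were varied. Python 3.11.15, numpy 2.4.6, scipy 1.17.1, pandas 2.3.3, scikit-learn 1.9.0 and matplotlib 3.10.9 were used, and the scripts were tested on simulated data.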

Additional observations from a re-analysis of the deposited data

Results flagged for a closer look

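The barcodes left out by the cell filter also held mitoribosomal UMIs. In the control, 186 such barcodes summed to 4268 CPM and in the mutant 202 to 4392 CPM, both above the limit that a count of 0 allows (3 counts, 7.77 and 9.09 CPM) and both below the level of the kept cells of their library. Their median depth was 1138 and 915 UMIs.

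The cycling ratio of 3 members had opposite signs in the libraries, with counting intervals away from 0 in each. Mrpl33 was at -0.041 in the control and 0.046 in the mutant, Mrpl34 at 0.10 and -0.10, and Mrpl11 at 0.10 and -0.11. The difference between the libraries was not tested, with 1 library a genotype, and each value is within 1.2-fold.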

How the results depend on the processing

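No paired analysis was possible because each genotype has a single library, so no replicate block or left-out replicate exists either, and the intervals cover counting error alone. The direction of the summed log2 ratios was the same as in the report under every alternative run: mutant over control stayed below 0, and the cycling and osteoclast ratios stayed above it. The mutant osteoclast values rest on 102 cells. Leaving out neutrophil-marked or stromal-marked cells from the state comparisons was chosen after seeing the data. The values that moved past their counting interval, with counts that changed by over 1.5 times, follow, and their causes were not tested. With totals without mt- and cytosolic ribosomal protein genes the summed log2 ratio was -0.38 for mutant over control over all cells, -0.33, -0.35, -0.47 and -0.47 for mutant over control in cells of neither state, cycling cells, osteoclast-transcript cells and cells of both states, 0.12 for cycling in the control and 0.35 and 0.21 for osteoclast transcripts in the control and mutant. At 1.2-fold 0 members were then higher in the mutant (against 21.9% of all genes), and the all-cell ratio turned to -0.060 for Mrps11, -0.053 for Mrpl13, -0.046 for Mrpl33 and -0.031 for Mrpl35. With median-of-ratios factors the summed log2 ratio was -0.36 for mutant over control over all cells. At 1.2-fold 0 members were then higher in the mutant (against 22.9% of all genes), and the all-cell ratio turned to -0.040 for Mrps11, -0.034 for Mrpl13, -0.027 for Mrpl33 and -0.011 for Mrpl35. With TMM factors the summed log2 ratio was -0.34 for mutant over control over all cells and the all-cell ratio turned to -0.014 for Mrps11, -0.0077 for Mrpl13 and -0.00022 for Mrpl33. With every cell weighted alike the summed log2 ratio was -0.29 for mutant over control over all cells, -0.25, -0.26, -0.38 and -0.35 for mutant over control in cells of neither state, cycling cells, osteoclast-transcript cells and cells of both states, 0.10 and 0.078 for cycling in the control and mutant and 0.25 and 0.13 for osteoclast transcripts in the control and mutant. At a fold of 1.5, 5 of 77 members were lower in the mutant, against 5.62% of all genes, and 0 were higher, against 12.8%. With only genes at a mean of 50 CPM or more, 0 of 55 members were higher in the mutant, against 26.0% of all genes, and 31 were lower, against 25.3%. With cells thinned to 2000 UMIs the summed log2 ratio was -0.26, -0.26 and -0.38 for mutant over control in cells of neither state, cycling cells and osteoclast-transcript cells, 0.079 and 0.072 for cycling in the control and mutant and 0.32 and 0.20 for osteoclast transcripts in the control and mutant. With cells thinned to 10000 UMIs the summed log2 ratio was -0.21, -0.24, -0.43 and -0.26 for mutant over control in cells of neither state, cycling cells, osteoclast-transcript cells and cells of both states, 0.15 and 0.12 for cycling in the control and mutant and 0.23 and 0.11 for osteoclast transcripts in the control and mutant. The number of members was then 10 higher with osteoclast transcripts in the mutant (13%, against 12.3% of all genes). With gates on unthinned counts the summed log2 ratio was -0.20, -0.22 and -0.37 for mutant over control in cells of neither state, cycling cells and osteoclast-transcript cells, 0.20 and 0.14 for cycling in the control and mutant and 0.16 and 0.041 for osteoclast transcripts in the control and mutant, and the number of members was 33 and 26 higher with cycling in the control and mutant and 14 and 2 higher with osteoclast transcripts in the control and mutant. With another random thinning the summed log2 ratio was -0.47 and -0.27 for mutant over control in osteoclast-transcript cells and cells of both states and 0.13 for osteoclast transcripts in the mutant. Without predicted doublets the summed log2 ratio was -0.37 for mutant over control in osteoclast-transcript cells, 0.13 and 0.10 for cycling in the control and mutant and 0.28 for osteoclast transcripts in the control. Without cells carrying neutrophil or stromal markers the summed log2 ratio was -0.24 for mutant over control in cycling cells. Without Mki67 in the cycling gate the summed log2 ratio was -0.24 for mutant over control in cells of neither state. With the S-phase list for the cycling genes the summed log2 ratio was 0.15 for cycling in the control. With the G2/M list for the cycling genes the summed log2 ratio was 0.22 and 0.15 for cycling in the control and mutant, and the number of members was 36 and 21 higher with cycling in the control and mutant. These counts have no share of all genes beside them here and are not read against a background. With at least 1 osteoclast UMI the summed log2 ratio was 0.17 and 0.046 for osteoclast transcripts in the control and mutant, and the number of members was 17 and 2 higher with osteoclast transcripts in the control and mutant. With at least 3 osteoclast UMIs the summed log2 ratio was 0.32 and 0.23 for osteoclast transcripts in the control and mutant, and the number of members was 39 higher with osteoclast transcripts in the mutant. With Acp5 added and at least 3 UMIs the summed log2 ratio was 0.30 and 0.10 for osteoclast transcripts in the control and mutant. The number of members was then 11 higher with osteoclast transcripts in the mutant (14.3%, against 14.6% of all genes). With only the last 150 bases of the promoter window, NRF1 letters were in 4 of the 69 genes and not in 7. That was 5.8%, against 3.64% of the genes that passed the filter. The E-box was then in 2 and not in 5 (2.9%, against 8.27%). The other 83 values of these results stayed within those limits. Mrpl39, Mrpl27 and Mrpl44, whose counting intervals reach 0 over all cells, also turned below 0 under the 3 other scalings, and Mrpl27 with every cell weighted alike as well. Depth limits Mrpl53 and the mutant cells with osteoclast transcripts, where single members carry wide counting intervals.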
